A study of Mus musculus with 4 samples.

Results

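The antigen presentation genes described here were 10 genes picked by symbol, of 40091 genes listed over the 4 single-nucleus RNA-seq libraries of mouse thalamus. The rule named the genes and used no measured value, although it was set with earlier results of these data known, and all 10 were listed in every library. Of them, 5 belong to class I of the major histocompatibility complex (H2-K1, H2-D1, B2m, Tap1 and Tap2) and 5 to class II (H2-Aa, H2-Ab1, H2-Eb1, Cd74 and Ciita). The study compared wild-type C57BL6 mice of about 7 to 8 weeks that received saline (NS group, 2 libraries) with mice that received type IV collagenase (Coll IV, COL group, 2 libraries), an enzyme that breaks down the vessel wall and so causes bleeding. Coll IV was given at 0.01 U per 10 nl into the right VPM and VPL, the sensory relay nuclei of the thalamus, and the tissue was taken 7 days after the injection. Each library pooled the thalamic tissue of 3 mice, so that replicates were libraries (n = 2 in each group) and p-values measure only the spread between libraries.

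Class I molecules show peptides from inside the cell to CD8 T cells, and nearly all nucleated cells can make them, although neurons and glia of the healthy brain make little. H2-K1 and H2-D1 encode the class I heavy chains, B2m the light chain that both need, and Tap1 and Tap2 the subunits of the transporter that carries peptides to them. Class II molecules show peptides from engulfed material to CD4 T cells and are made mainly by dendritic cells, B cells and activated macrophages and microglia. H2-Aa and H2-Ab1 encode the alpha and beta chain of I-A, H2-Eb1 the beta chain of I-E, whose alpha chain C57BL6 mice do not make, and Cd74 the invariant chain that holds the groove until loading. Ciita encodes the switch that turns the class II chains on, and Nlrc5, which is not a member, has the same role for class I. Interferon gamma is the classical inducer of both sets.

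Promoters of the members are printed because members of each class were compared as a set, and because short boxes upstream of the start are what the switches Ciita and Nlrc5 are known to work through. RefSeq windows on GRCm38.p6 were found for 6 of the 10 members (H2-K1 with 2 starts). Shown are the 180 bases before the first transcribed base, 5′ to 3′ on the gene's own strand, with matches to 5 searched motifs in capitals: CCAAT (the Y box core, ATTGG on the other strand), TGACGC and TGACGTCA (forms of the X2 box), the kappa B site of class I genes (the longest capital run in H2-K1 and H2-D1) and the interferon response element (GAAACTGAAA as it reads in B2m, with any 2 letters allowed in its middle). The sequences are H2-K1 at chr17:34000334-34000513 (minus strand), H2-D1 at chr17:35262914-35263093 (plus), B2m at chr2:122147507-122147686 (plus), H2-Aa at chr17:34287824-34288003 (minus) and H2-Eb1 at chr17:34305687-34305866 (plus).
H2-K1: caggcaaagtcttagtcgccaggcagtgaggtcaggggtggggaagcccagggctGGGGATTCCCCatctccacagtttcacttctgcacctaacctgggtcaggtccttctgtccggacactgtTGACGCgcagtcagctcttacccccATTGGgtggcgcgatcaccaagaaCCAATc
H2-D1: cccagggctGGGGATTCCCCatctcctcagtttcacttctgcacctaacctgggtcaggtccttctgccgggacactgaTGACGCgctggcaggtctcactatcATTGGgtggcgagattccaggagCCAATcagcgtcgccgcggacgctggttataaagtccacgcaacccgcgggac
B2m: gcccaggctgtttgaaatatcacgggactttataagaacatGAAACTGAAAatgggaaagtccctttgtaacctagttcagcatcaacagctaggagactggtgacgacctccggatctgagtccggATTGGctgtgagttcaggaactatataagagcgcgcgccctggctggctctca
H2-Aa: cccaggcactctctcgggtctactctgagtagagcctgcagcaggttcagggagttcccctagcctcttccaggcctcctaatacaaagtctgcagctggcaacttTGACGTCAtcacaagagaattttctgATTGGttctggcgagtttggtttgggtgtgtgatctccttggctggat
H2-Eb1: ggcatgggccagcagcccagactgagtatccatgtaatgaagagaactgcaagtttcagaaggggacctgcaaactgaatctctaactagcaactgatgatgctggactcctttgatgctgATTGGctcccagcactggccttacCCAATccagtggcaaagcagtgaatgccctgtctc

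Both heavy chain genes held a kappa B site, TGACGC and a Y box in the same order. In H2-K1 the motifs began 125, 55 and 30 bases before the start, and in H2-D1 they began 171, 101 and 76 bases before it. The same kappa B site stood in 10 of 32851 mouse windows of 300 bases (0.03044%) and TGACGC in 7.403% of them. The windows of H2-K1 and H2-D1 were among these 10. As the letters searched were those known from class I genes, finding them there was no test. H2-Aa held TGACGTCA 74 bases and a Y box 48 bases before its start, and H2-Eb1 held Y boxes at 59 and 35 bases. TGACGTCA was found in 1.79% of the windows and CCAAT in 37.41%, so that a Y box alone is common. B2m carried the interferon element 139 bases before its start (3.443% of windows) and a Y box at 53 bases, whereas Tap1 held only CCAAT at 222 bases. The gamma-activated site TTCNNNGAA (8.298% of windows) was in none of the members' windows. Both strands were searched for these exact patterns only, so that a window without a match may still hold a variant form of a motif. A match is a run of letters, not a shown binding site.

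On the mouse genome (GRCm38), 7 members lie on chromosome 17. H2-K1 spans 17:33996017-34000347, Tap1 17:34187553-34197225, Tap2 17:34203527-34216321, H2-Ab1 17:34257689-34269419, H2-Aa 17:34282744-34287823, H2-Eb1 17:34305867-34316674 and H2-D1 17:35262730-35267499, all within the H2 complex. B2m spans 2:122147686-122153083, Ciita 16:10480059-10528418 and Cd74 18:60803848-60812652. H2-K1 and H2-D1 shared 9.633% and 12.77% of their 50-base transcript words with other genes, mostly other class I genes, so their counts are uncertain to the extent that reads fell there. Exons of B2m, Tap1, Tap2, H2-Eb1 and Ciita overlap genes of the opposite strand (Patl2, Psmb9, Gm15821, Gm20513 and Dexi among them), and how the counting treated strand is not given in the sources used here.

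After filtering, 9673 and 10422 nuclei of NS replicates 1 and 2 and 5931 and 6265 nuclei of COL replicates 1 and 2 were kept, with 68723738 to 77546840 UMIs (unique molecular identifiers, the counted RNA molecules) per library. Nuclei were assigned to types by their level of marker genes, none of which is a member. The 5 types with enough nuclei in every library for a test were neurons (2757 to 5046 nuclei per library), mature oligodendrocytes (1608 to 3595), oligodendrocyte precursors (OPC, 175 to 334), astrocytes (162 to 1151) and microglia (287 to 443). Macrophages numbered 1 and 5 nuclei in the NS libraries and 185 and 266 in the COL libraries, T and NK cells 7 and 2 against 48 and 63, and myeloid nuclei that the markers did not divide into microglia and macrophages 14 and 19 against 125 and 195. These 3 groups could therefore be described in the COL libraries only. Genes of the marker lists that were kept out of the assignment stood highest in their own type among the 5 tested types. The 5 neuronal genes kept out of the assignment were found outside neurons too, at 4.79 and 4.19 UMIs per nucleus in NS microglia and 20.8 and 16.2 in COL microglia, and their part in the differences between the groups was not tested. Pairs of libraries shared 8 to 31 barcodes. Median depth per nucleus was 15137 and 15167 UMIs in COL neurons against 4030 and 4265 in COL microglia, and 2264 and 2044 in NS microglia. Levels are given as UMIs per nucleus, and COL was tested against NS on counts summed per library and type with edgeR's quasi-likelihood test (TMM scaling, adjusted p under 0.05). In droplet data, RNA free in the suspension also adds UMIs to nuclei that do not make it, and neurons, which are not known for class II, were taken as the type to compare with. How much of the class II RNA counted in neurons was free RNA was not tested.

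Over all nuclei of a library, 4 of 5 class I members and 4 of 5 class II members were higher in the COL group, beside 9.45% of all genes called in either direction and 5.02% called higher. Cd74 had 53 and 120 UMIs in the NS libraries against 1386 and 4423 in the COL libraries, H2-Aa 20 and 28 against 453 and 1416, H2-Ab1 24 and 31 against 455 and 1661, and H2-Eb1 26 and 37 against 398 and 1134. B2m had 420 and 439 UMIs against 1459 and 2510, and H2-K1 358 and 359 against 1003 and 1418. For each of these genes both COL libraries lay above both NS libraries, and COL replicate 2 was the higher of the COL pair. The log2 differences were 5.19 ± 0.66 for Cd74 (SE, edgeR adjusted p = 0.00994), 5.43 ± 0.58 for H2-Aa, 5.41 ± 0.63 for H2-Ab1, 4.76 ± 0.54 for H2-Eb1, 2.40 ± 0.25 for B2m (adjusted p = 0.00554), 1.96 ± 0.21 for H2-K1 and 2.34 ± 0.35 for Tap1. H2-D1 was higher by 1.12 ± 0.25 (adjusted p = 0.0435), a call that was lost without NS replicate 1 (adjusted p = 0.0935) or COL replicate 2 (adjusted p = 0.0539). Tap2 (0.64, adjusted p = 0.158) and Ciita (0.33, adjusted p = 0.584) did not pass. Ciita had 321 and 437 UMIs in the NS libraries and 254 and 602 in the COL libraries, so that its groups overlapped. In sums over all nuclei, more cells of a type and more RNA per cell cannot be told apart.

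In COL libraries class II RNA was counted in each of the 5 tested types, with macrophages and undivided myeloid nuclei far above them. The 4 class II chains (H2-Aa, H2-Ab1, H2-Eb1 and Cd74) summed to 3.94 and 6.68 UMIs per nucleus in macrophages of COL replicates 1 and 2 and to 3.47 and 6.21 in undivided myeloid nuclei. They summed to 0.290 and 1.04 in neurons, 0.212 and 0.802 in mature oligodendrocytes, 0.229 and 0.713 in OPC, 0.198 and 0.688 in astrocytes and 0.213 and 0.930 in microglia. Per nucleus, microglia thus stood within the range of the other resident types and not with the macrophages. Relative to total RNA, the log2 differences of the 4 chains from neurons were 1.15 to 1.44 in microglia and 4.28 to 4.63 in macrophages. The share of all genes called on that scale is not given here. In the NS libraries the same sum lay between 0.00599 and 0.0259 in these 5 types, 0.00951 and 0.0200 in neurons and 0.0259 and 0.0185 in microglia. Each of the 5 types was higher in both COL libraries than in both NS libraries.

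**Figure D1:**
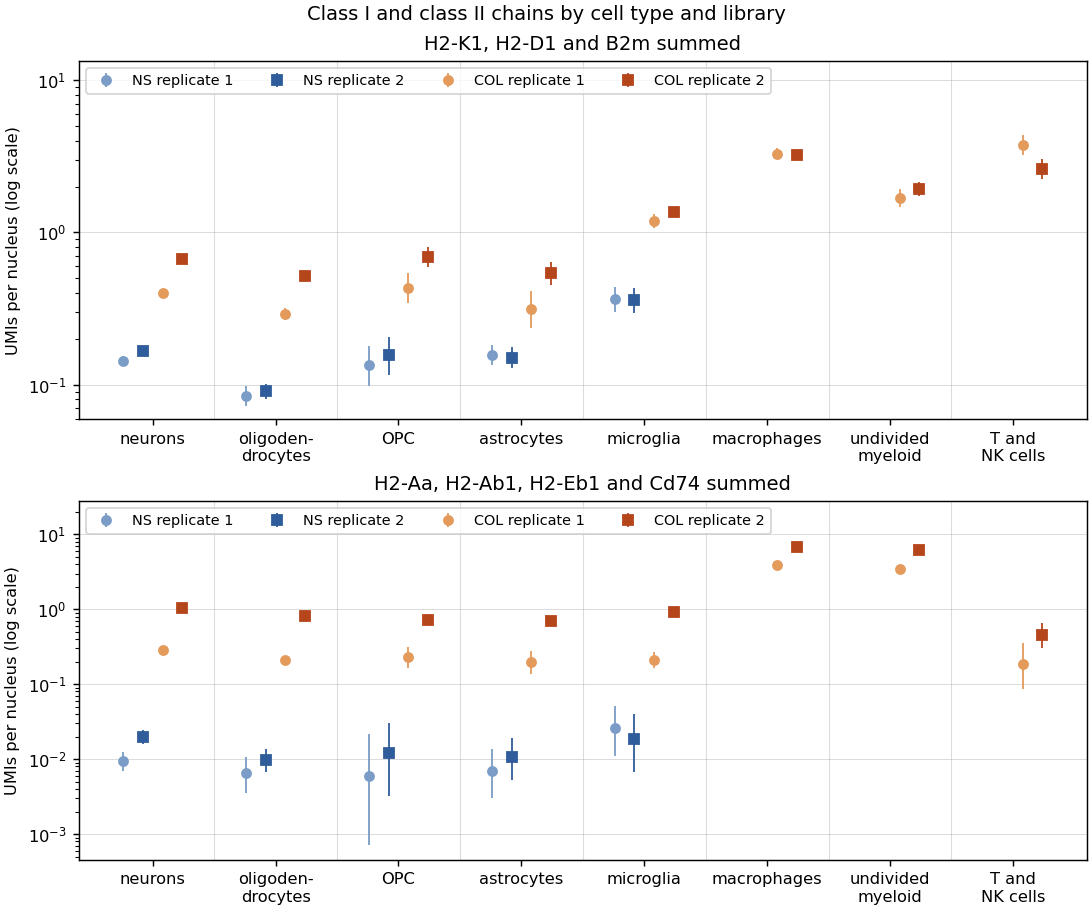
UMIs per nucleus (log axis) of the class I chains summed and of the class II chains summed, by cell type, with 1 point per library and 95% counting (Poisson) intervals as bars. Macrophages, undivided myeloid nuclei and T and NK cells are shown for COL only. COL libraries lie above NS libraries in every tested type, class II in COL microglia (0.213 and 0.930) lies beside COL neurons (0.290 and 1.04), and class I in COL microglia (1.18 and 1.36) lies above COL neurons (0.402 and 0.667).

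The COL libraries differed from each other in a way that was shared across types. The class II sum in COL replicate 2 was 3.58 times that in replicate 1 in neurons, 3.79 times in oligodendrocytes, 3.12 times in OPC, 3.48 times in astrocytes and 4.38 times in microglia. In macrophages it was 1.70 times. The class I sum differed less, by 1.66 times in neurons, 1.15 times in microglia and 0.984 times in macrophages. The ratio of microglia to neurons within a library, which sets a type beside the neurons of its own suspension, was 2.72 and 0.928 for class II in the NS libraries and 0.734 and 0.898 in the COL libraries. Macrophages stood 13.6 and 6.45 times above neurons, and undivided myeloid nuclei 12 and 5.99 times.

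These orders were tested within the COL libraries, on UMIs per nucleus with the library as a block, each type against neurons (a test added after the data had been seen). None of the 4 class II chains passed between microglia and neurons, where the log2 difference was −0.19 ± 0.30 for H2-Aa (edgeR adjusted p = 0.544), −0.22 ± 0.31 for H2-Ab1 (adjusted p = 0.494), −0.34 ± 0.32 for H2-Eb1 (adjusted p = 0.320) and −0.05 ± 0.23 for Cd74 (adjusted p = 0.839). By comparison 77.5% of all 14763 genes were lower in microglia in that contrast and 10.2% were higher. The answer turned with the scale: relative to the total RNA of the type (TMM scaling), the same 4 chains were higher in microglia by 1.33, 1.29, 1.15 and 1.44. The share of all genes called on that scale is not given here, for these or for later calls between types relative to total RNA. All 4 were higher in macrophages than in neurons per nucleus, Cd74 by 3.25 ± 0.19, H2-Aa by 3.18, H2-Eb1 by 3.09 and H2-Ab1 by 2.96, where 12.2% of genes were called higher. In undivided myeloid nuclei (10.5% called higher) they were higher by 2.82 to 3.11. T and NK cells held 0.188 and 0.460 class II UMIs per nucleus, and H2-Aa was lower there than in neurons (−1.67, adjusted p = 0.0421, with 74.2% of genes called lower), a call that was lost relative to total RNA (0.18, adjusted p = 0.905).

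**Figure D2:**
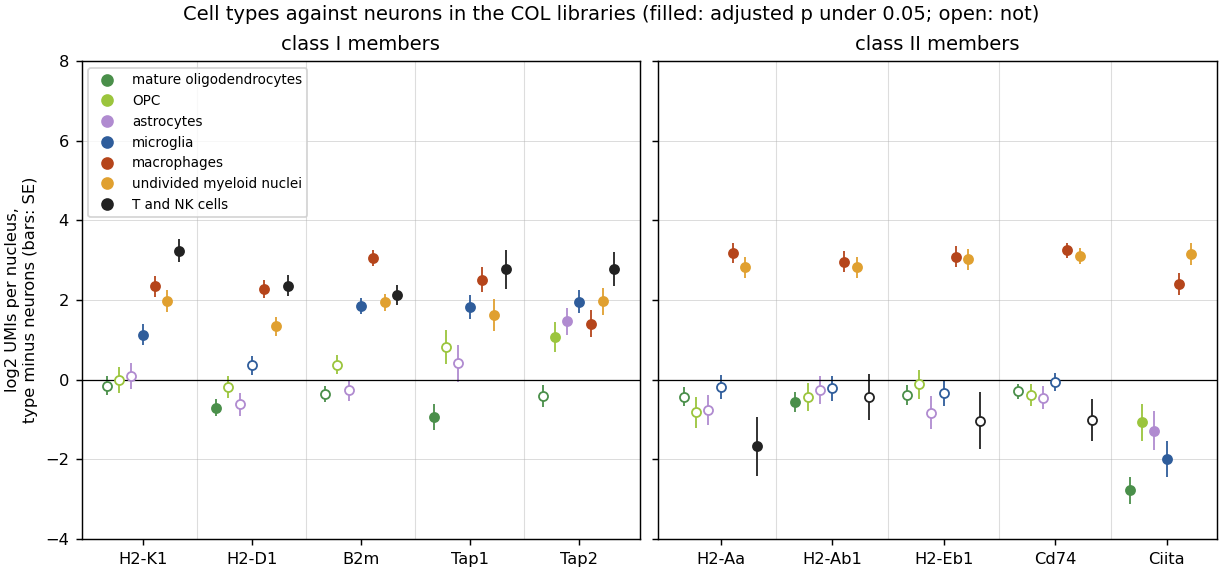
Log2 difference of each member between a cell type and neurons within the COL libraries, per nucleus, with the SE as a bar. The 4 class II chains of microglia lie at the line of no difference (−0.05 to −0.34), those of macrophages lie between 2.96 and 3.25, and B2m of microglia lies at 1.85. Ciita of T and NK cells, with 0 UMIs, is not drawn.

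Of the 5 class I members, 4 were higher in microglia than in neurons in the same contrast. B2m was higher in microglia than in neurons by 1.85 ± 0.20 (adjusted p = 3.15e-09), H2-K1 by 1.13 ± 0.26 (adjusted p = 0.000277), Tap1 by 1.83 and Tap2 by 1.96, while H2-D1 did not pass (0.36, adjusted p = 0.151). Relative to total RNA all 5 were higher, H2-D1 by 1.83, with no share of all genes on that scale to set beside them. In macrophages all 5 class I members were higher, B2m by 3.05 ± 0.20, Tap1 by 2.51, H2-K1 by 2.34, H2-D1 by 2.27 and Tap2 by 1.41. T and NK cells (4.92% of genes called higher) had the largest H2-K1 difference of the 7 types compared, 3.24, with H2-D1 at 2.36 and B2m at 2.13. Mature oligodendrocytes (6.19% of genes called higher, 83% lower) were lower than neurons in H2-D1 (−0.71, adjusted p = 0.00321), Tap1 (−0.94, adjusted p = 0.00777) and H2-Ab1 (−0.56, adjusted p = 0.0415). These directions turned with the scale too, since relative to total RNA H2-D1 (0.73) and H2-Ab1 (0.88) were higher in oligodendrocytes and Tap1 did not pass (0.49, adjusted p = 0.210). OPC (7.22% of genes called higher per nucleus, 68.9% lower) and astrocytes (7.77% higher, 73.1% lower) were higher than neurons in Tap2 alone among the members, by 1.07 and 1.46. Relative to total RNA, H2-K1 (0.99 and 1.34), B2m (1.38 and 0.95) and Tap1 (1.81 and 1.63) were among the members higher in both. No share of all genes on that scale stands beside these calls.

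Class I per nucleus stood higher in immune nuclei than in neurons, OPC, astrocytes and oligodendrocytes in both COL libraries. Endothelial nuclei, with 6 and 8, and pericytes and fibroblasts, with 3 and 10 nuclei, were too few to be placed. The summed heavy and light chains (H2-K1, H2-D1 and B2m) reached 3.29 and 3.23 UMIs per nucleus in macrophages and 3.75 and 2.62 in T and NK cells. They reached 1.68 and 1.93 in undivided myeloid nuclei and 1.18 and 1.36 in microglia. The few endothelial nuclei held 5.33 and 3.25, or 0.923% and 0.468% of the class I chain UMIs of their library. Pericytes and fibroblasts held 0.115% and 0.0900% of them. Below the immune nuclei stood OPC (0.434 and 0.692), neurons (0.402 and 0.667), astrocytes (0.315 and 0.542) and oligodendrocytes (0.291 and 0.514). In the NS libraries microglia already held the most of the 5 types, 0.366 and 0.358, against 0.142 and 0.167 in neurons and 0.0844 and 0.0907 in oligodendrocytes.

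In microglia 3 class I members and 1 class II member were higher in the COL group, beside 25.2% of all genes called and 11.9% called higher. B2m had 0.217 and 0.191 UMIs per nucleus in the NS libraries and 0.655 and 0.806 in the COL libraries. H2-K1 had 0.0744 and 0.0741 against 0.300 and 0.312, and Tap1 0.0129 and 0.0123 against 0.0767 and 0.0993. No COL library overlapped an NS library in any of them. Relative to all RNA in microglia, B2m rose by 0.83 ± 0.19 (edgeR adjusted p = 0.00615), H2-K1 by 1.02 ± 0.26 (adjusted p = 0.0119) and Tap1 by 1.78 ± 0.49 (adjusted p = 0.0177) on the log2 scale. H2-D1 (0.48 ± 0.28, adjusted p = 0.231) and Tap2 (0.32 ± 0.35, adjusted p = 0.545) did not pass. The H2-K1 call was lost without NS replicate 1 (adjusted p = 0.0826) and the Tap1 call without NS replicate 1 (0.112), NS replicate 2 (0.0739) or COL replicate 2 (0.119).

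Class II in microglia rested on few molecules in the NS libraries. Cd74 had 3 and 4 UMIs in NS microglia and 32 and 216 in COL microglia, and rose by 3.74 ± 0.73 (edgeR adjusted p = 0.00261). H2-Aa had 1 and 0 UMIs against 8 and 71, H2-Eb1 1 and 0 against 10 and 45, and H2-Ab1 3 and 2 against 11 and 80, too few for the filter of the test. Per nucleus their COL to NS ratio was 68.5 for H2-Aa (95% counting interval 11.9 to 2740), 47.7 for H2-Eb1 (8.21 to 1918) and 15.8 for H2-Ab1 (6.52 to 49.8). These ratios rested mainly on COL replicate 2, and with COL replicate 1 alone they were 17.6, 22.1 and 4.85, the last below its printed interval, which covers counting error only. Ciita had 1 and 4 UMIs against 1 and 12 (ratio 2.25, interval 0.754 to 8.08). Its ratio was 0.441 with COL replicate 1 alone and 3.43 with COL replicate 2 alone, so that a change of Ciita in microglia was not detectable at this depth. All these counts stood beside the class II level of neurons, which was also higher in both COL libraries.

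In mature oligodendrocytes 4 class I and 4 class II members were higher in the COL group (21.4% of all genes called, 9.44% higher). Levels relative to RNA are given as CPM (counts scaled to the total UMIs of that type in the library). H2-Aa went from 0.127 and 0.0850 CPM to 6.52 and 18.6, and Cd74 from 1.01 and 2.21 to 18.9 and 61.8. The H2-Aa levels were 1 and 1 UMIs in the NS libraries against 63 and 201 in the COL libraries, so that its fold rested on few NS molecules. The log2 differences were 6.84 ± 0.76 for H2-Aa (edgeR adjusted p = 0.0033), 5.30 ± 0.77 for H2-Ab1, 5.14 ± 0.73 for H2-Eb1 and 4.62 ± 0.59 for Cd74. B2m rose by 1.80 ± 0.28 and H2-K1 by 1.31 ± 0.23, with B2m at 6.45 and 8.58 CPM against 19.0 and 31.5. Tap1 rose by 2.54 ± 0.57 (adjusted p = 0.0181) and H2-D1 by 0.96 ± 0.29 (adjusted p = 0.0441). The Tap1 call was lost without NS replicate 1 (0.0846), NS replicate 2 (0.132) or COL replicate 1 (0.0669), and that of H2-D1 without NS replicate 1 (0.236) or COL replicate 2 (0.0853). Ciita did not pass (−0.30, adjusted p = 0.777), and passed as lower without COL replicate 2 (−2.08, adjusted p = 0.0487).

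In astrocytes B2m, H2-Aa, H2-Eb1 and Cd74 were higher, beside 17.8% of all genes called and 8.02% called higher. H2-Ab1 had too few counts for the filter of the test, with 4 UMIs in NS astrocytes. Its COL to NS ratio per nucleus was 67.0, and 10.1 with COL replicate 1 alone. Cd74 rose by 5.28 ± 0.55 (edgeR adjusted p = 7.16e-05), H2-Aa by 4.62 ± 0.70 (adjusted p = 0.000601), H2-Eb1 by 3.57 ± 0.65 and B2m by 1.10 ± 0.28 (adjusted p = 0.0147). H2-Aa had 3 UMIs in NS astrocytes, and its ratio per nucleus was 50.8 (interval 15.7 to 260), and 26.9 with COL replicate 1 alone. The B2m call was lost without NS replicate 1 (adjusted p = 0.0619) or NS replicate 2 (0.0596), and that of H2-Eb1 without NS replicate 2 (0.0605). Without COL replicate 2, H2-Aa and H2-Eb1 had too few counts for the filter of the test. Without COL replicate 1 H2-D1 became a call (adjusted p = 0.0315).

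In OPC (15.5% of all genes called, 6.83% higher) B2m rose by 1.85 ± 0.38 (edgeR adjusted p = 0.00752), Cd74 by 4.56 ± 0.71 and H2-Eb1 by 4.79 ± 0.89. H2-Eb1 had 1 and 0 UMIs in the NS libraries, a ratio per nucleus of 56.9 (interval 9.58 to 2309; 34.3 with COL replicate 1 alone). H2-Aa and H2-Ab1 had too few counts for the filter of the test. H2-Aa, with 1 UMI in NS OPC, had a ratio of 44.3 (15.2 with COL replicate 1 alone). H2-Ab1, with 0 UMIs in NS OPC, was at least 22.7-fold higher with both COL libraries pooled, against a floor of 3 counts over the group. This value rested mainly on COL replicate 2, as H2-Ab1 made up 20% of 40 chain UMIs in COL replicate 1 and 19.9% of 176 in replicate 2. With the stricter gate Cd74 and H2-Eb1 had too few counts in OPC for the filter of the test, as had H2-Eb1 without COL replicate 2, so that 0 and 1 class II calls were left. H2-D1 became a call without COL replicate 1 (adjusted p = 0.0169).

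In neurons none of the 10 members passed, beside 0.00837% of all genes, or 2 of 23889. B2m had 0.0355 and 0.0406 UMIs per nucleus in NS neurons and 0.152 and 0.262 in COL neurons, and Cd74 0.00456 and 0.0102 against 0.142 and 0.511. The groups did not overlap, and the log2 differences were 1.96 ± 0.29 for B2m, 2.04 ± 0.26 for H2-K1 and 4.96 ± 0.73 for Cd74, each with an edgeR adjusted p of 0.102. At an unadjusted p under 0.05, 3 class I and 4 class II members passed in edgeR, as did 6772 of the 23889 genes. DESeq2 called 3 and 4 members among 2596 of 22182 genes, and edgeR with no filter on low counts also called 3 and 4, so that the calls in this type depended on the settings.

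**Figure D3:**
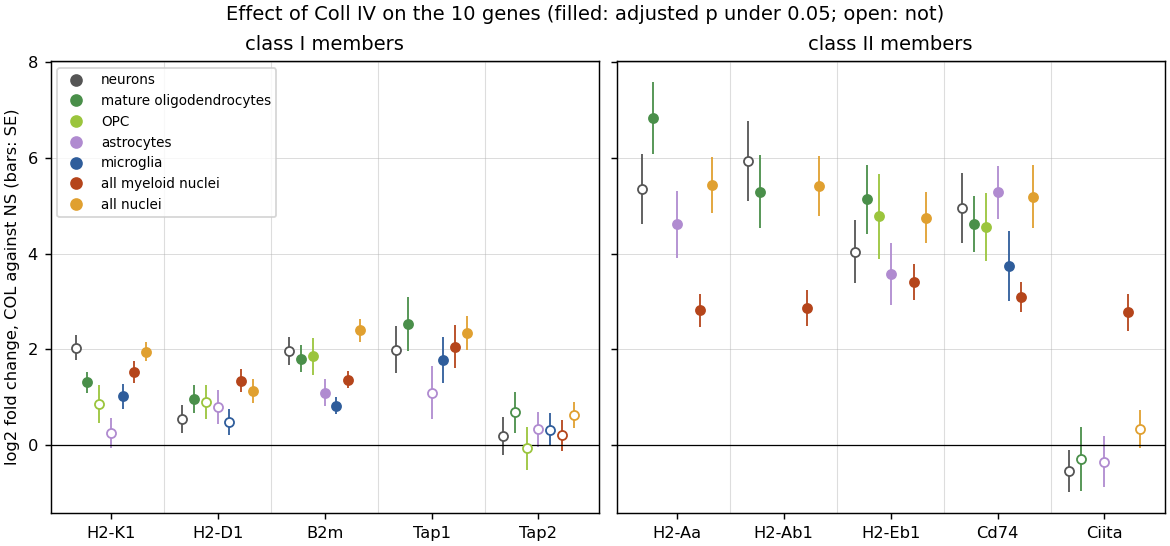
Log2 difference COL minus NS of each member in each tested type, in all myeloid nuclei and in all nuclei, from edgeR on summed counts, with the SE as a bar and filled points for an adjusted p under 0.05 (open points did not pass). Among the 5 types Cd74 lies between 3.74 in microglia and 5.28 in astrocytes, B2m between 0.83 in microglia and 1.96 in neurons, and no neuron point is filled.

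Whether the COL effect itself differed between microglia and the other types was tested in a single fit. The COL to NS difference of B2m was smaller in microglia than in neurons, where it did not pass by itself (difference −0.93 ± 0.23, edgeR adjusted p = 0.00662, with 9.27% of genes called) and than in mature oligodendrocytes (−0.88 ± 0.25, adjusted p = 0.0311, 5.42% called). That of H2-Ab1 was smaller in microglia than in neurons (−2.94 ± 0.90, adjusted p = 0.0363). By itself H2-Ab1 did not pass in neurons and had too few counts in microglia for the filter of the test. Against OPC (4.26% called) and astrocytes (3.1% called) no member passed. The B2m difference from neurons was lost without NS replicate 1 (adjusted p = 0.170) or COL replicate 2 (0.0722), that from oligodendrocytes without NS replicate 1 (0.481), NS replicate 2 (0.0844) or COL replicate 2 (0.219), and that of H2-Ab1 without any single library (0.0564 to 0.479). Scaled per nucleus, B2m did not pass against neurons (−0.59, adjusted p = 0.0670) or oligodendrocytes (−0.78, adjusted p = 0.0670), and with DESeq2 it passed against neurons (adjusted p = 0.0127) but not against oligodendrocytes (adjusted p = 0.0659).

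Myeloid genes kept out of the assignment were higher in both COL libraries in neurons and glia, as class II was, but not to the same extent. The microglia markers did not follow class II in neurons. The sum of 5 myeloid genes not used for assignment (Spi1, Tyrobp, Ctss, Aif1 and Itgam, all 5 found in neurons) was 0.0815 and 0.118 UMIs per nucleus in NS neurons and 0.390 and 0.831 in COL neurons. It was 0.0456 and 0.0765 against 0.233 and 0.634 in oligodendrocytes, 0.0329 and 0.0691 against 0.263 and 0.769 in OPC and 0.0400 and 0.0884 against 0.272 and 0.640 in astrocytes. The 8 microglia markers summed to 0.638 and 0.747 UMIs per nucleus in NS neurons and to 0.438 and 0.904 in COL neurons, so that the groups overlapped. Relative to all RNA of neurons they stood at 55.6 and 70.1 CPM in NS against 25.3 and 54.3 in COL. Over all neurons, the 5 myeloid genes had 411 and 522 UMIs in NS and 1149 and 2292 in COL. The class II chains had 48 and 88 against 853 and 2855, a larger relative rise. In neurons the 10 macrophage markers summed to 0.175 and 0.162 UMIs per nucleus in NS and to 0.402 and 0.535 in COL. The 10 macrophage markers summed to 0.0259 and 0.0154 in NS microglia and to 0.223 and 0.352 in COL microglia, with 7 and 9 of the 10 found in the COL libraries, or to 10.9 and 7.08 CPM against 49.0 and 73.7. The 7 dendritic markers stood at 35.4 and 35.4 CPM in NS microglia against 32.2 and 35.9 in COL microglia, so that their ranges overlapped. They stood higher in neurons, at 72.0 and 99.5 CPM in NS and 78.8 in COL replicate 1. The list as a whole was thus not specific to dendritic cells in these libraries. As with class II, the myeloid and macrophage sums were higher in COL replicate 2. The part of these markers in the class II results of neurons, glia and microglia was not tested. In COL macrophages the same 5 myeloid genes stood at 8.55 and 8.66 UMIs per nucleus.

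Summed over all myeloid nuclei, which does not rest on the border between microglia and macrophages, 9 of 10 members were higher in the COL group (30.9% of all genes called, 16.1% higher). Cd74 went from 24.9 and 52.5 CPM to 232 and 407 and rose by 3.10 ± 0.32 (edgeR adjusted p = 1.16e-05). Ciita went from 6.56 and 8.07 CPM to 39.5 and 56.9 and rose by 2.77 ± 0.38, H2-Aa rose by 2.82 ± 0.35, H2-Ab1 by 2.86 ± 0.37 and H2-Eb1 by 3.41 ± 0.38. The NS level of Ciita rested on few UMIs, 11.4 and 8.45 per 100 of 44 and 71 class II chain UMIs. In NS replicate 1, 1 nucleus with dendritic cell markers (set out below) held 80% of the Ciita UMIs. Among class I, Tap1 rose by 2.06 ± 0.44, H2-K1 by 1.52 ± 0.23, B2m by 1.36 ± 0.18 and H2-D1 by 1.35 ± 0.23. Tap2 did not pass (0.21, adjusted p = 0.667), and its CPM of 18.4 and 21.5 against 23 and 21.5 overlapped between the groups. The NS sums held only 6 macrophage nuclei, so that more macrophages and more RNA per myeloid nucleus cannot be told apart here.

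Class II UMIs were spread unevenly over the myeloid nuclei. In macrophages of COL replicates 1 and 2, 65.9% and 39.1% of nuclei had no class II chain UMI, while the 10% of nuclei with the most held 90.4% and 76.4% of these UMIs and the highest single nucleus 187 and 148. COL microglia had none in 83.3% and 52.8% of nuclei and COL neurons in 75.5% and 39.6%, and their highest single nuclei held 6 and 64, and 7 and 28. Myeloid nuclei with dendritic cell markers (at least 3 UMIs from at least 2 of Flt3, Xcr1, Zbtb46, Clec9a, Cd209a, Itgax and Ccr7) numbered 12 and 42 in the COL libraries, 2.01% and 4.65% of the myeloid nuclei. They held 42.9% and 41.9% of the myeloid class II chain UMIs and 50.9% and 57.4% of the myeloid Ciita UMIs. Each of them carried on average 43.75 and 33.9 chain UMIs. Genes of the dendritic list were also counted in neurons, as given above. The B and plasma cell markers, of another class II type, summed to 0.256 and 0.0564 UMIs per nucleus in undivided myeloid nuclei and to 0.0162 and 0.0301 in macrophages. Without the dendritic-marker nuclei, macrophages still stood 6.75 and 3.5 times above neurons. In the NS libraries, 1 such nucleus held 81.8% of the myeloid class II UMIs of replicate 1, and replicate 2 had none by these markers, where a single macrophage held 49 UMIs.

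The share of Cd74 among the class II chains varied less across types in the COL libraries. It lay lowest in T and NK cells of COL replicate 2 (44.8% of 29 chain UMIs). It lay highest in macrophages without dendritic markers of COL replicate 1 (60.2% of 352). Cd74 made up 48.9% and 49.4% of the 4 chains' UMIs in neurons, 52.5% and 52.4% in microglia, 52.5% and 52.1% in macrophages and 46.3% and 49.8% in dendritic-marker nuclei. The other chains varied more where UMIs were few, H2-Ab1 from 9.38% in astrocytes of COL replicate 1 (32 chain UMIs) to 27.6% in astrocytes of COL replicate 2 (174 chain UMIs), H2-Eb1 from 9.77% in those of replicate 2 to 22.5% in OPC of replicate 1 (40 chain UMIs). Ciita, set against the chains, varied more widely. It counted 13.8 and 8.90 UMIs per 100 chain UMIs in neurons, 1.16 and 2.09 in oligodendrocytes, 1.64 and 2.91 in microglia, 6.31 and 6.53 in macrophages, and 10.7 and 10.0 in dendritic-marker nuclei. Neurons already had more Ciita than the other 4 tested types in every library, with 0.0523 and 0.0830 UMIs per nucleus in the NS group and 0.0401 and 0.0921 in the COL group. The span of Dexi, a gene on the opposite strand, overlaps exons of Ciita. If strand was not used in counting, reads of Dexi that fell there cannot be told apart from Ciita. Within the COL libraries Ciita was lower than in neurons in microglia (−1.99 ± 0.46, edgeR adjusted p = 0.00028), oligodendrocytes (−2.78), OPC (−1.07) and astrocytes (−1.28), and higher in macrophages (2.40) and undivided myeloid nuclei (3.15). Relative to total RNA it was lower than in neurons in oligodendrocytes (−1.37, adjusted p = 0.00115), and did not pass in microglia (−0.50, adjusted p = 0.388), OPC (−0.08) or astrocytes (−0.07).

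**Figure D4:**
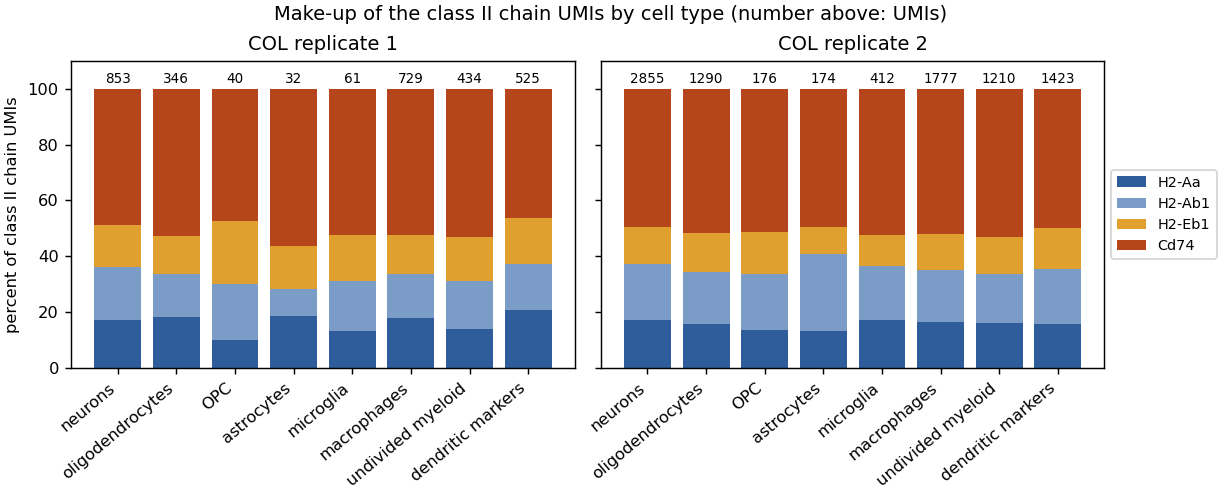
Stacked bars of the share of H2-Aa, H2-Ab1, H2-Eb1 and Cd74 in the UMIs of these 4 chains (percent) by type, with 1 panel per COL library and the number of chain UMIs above each bar. Cd74 lies between 46.3% and 56.3% in the types shown, while H2-Ab1 (9.38% to 27.6%) and H2-Eb1 (9.77% to 22.5%) vary more, with their extremes in OPC and astrocytes, where the numbers above the bars are low.

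The switch genes Nlrc5 and Ciita were followed over the same types. Nlrc5 had 0.0356 and 0.0401 UMIs per nucleus in NS microglia and 0.474 and 0.395 in COL microglia, and in oligodendrocytes 0.00369 and 0.00306 against 0.0931 and 0.118. In COL libraries it stood at 0.0869 and 0.0798 in neurons, 0.143 and 0.158 in OPC, 0.204 and 0.206 in astrocytes, 0.735 and 0.688 in macrophages and 1.19 and 1.10 in T and NK cells. Unlike class II, it was about as high in COL replicate 1 as in replicate 2. Nlrc5 rose by 2.49 ± 0.30 in microglia (edgeR adjusted p = 0.000166), 4.16 ± 0.30 in oligodendrocytes (adjusted p = 0.000572), 3.33 in OPC and 2.80 in astrocytes, and in neurons it was 3.30 higher without passing (adjusted p = 0.102). Ciita passed in none of the 3 types in which it could be tested (neurons, oligodendrocytes and astrocytes), had too few counts for the test in microglia and OPC, and rose in all myeloid nuclei as given above. The difference between both genes was not tested. Within the COL libraries Nlrc5 was higher than in neurons by 2.37 ± 0.19 in microglia, 1.30 in astrocytes, 0.86 in OPC, 3.09 in macrophages and 3.77 in T and NK cells, and in oligodendrocytes it did not pass (0.34, adjusted p = 0.075) but was higher by 1.78 relative to total RNA.

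**Figure D5:**
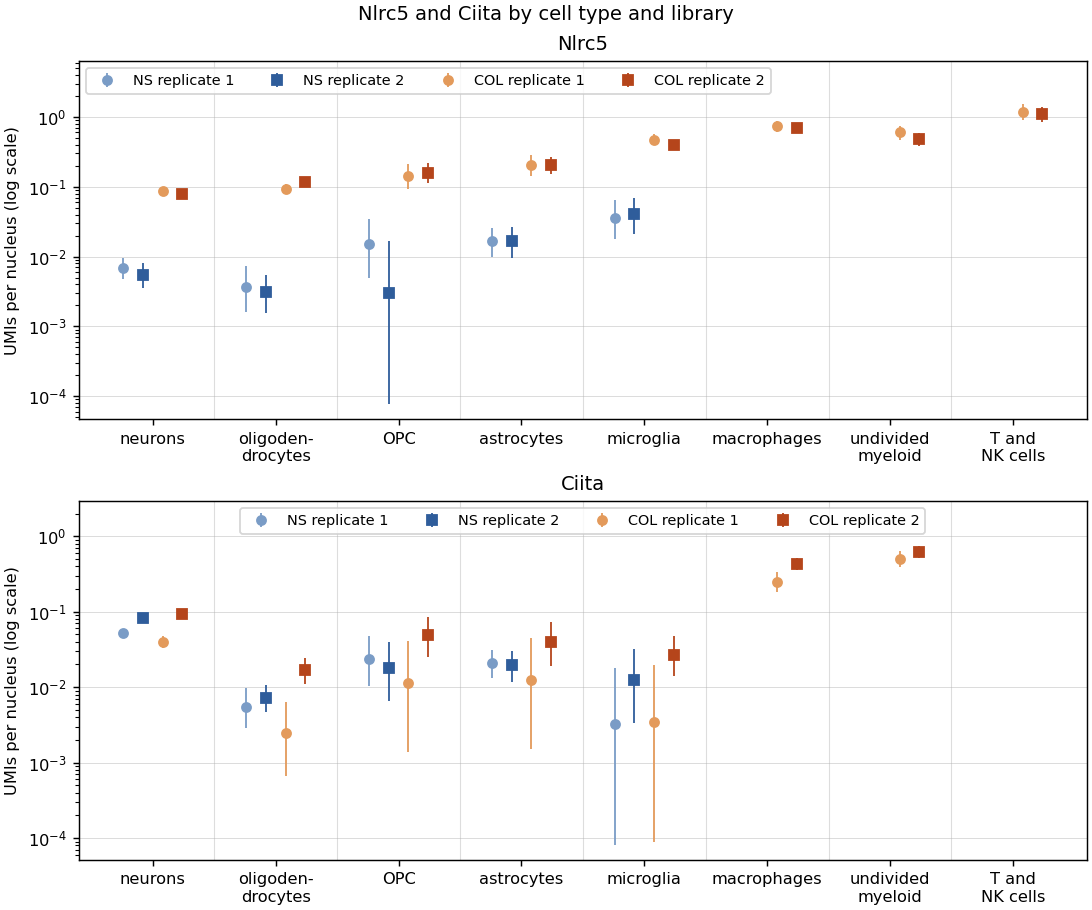
UMIs per nucleus (log axis) of the switch genes Nlrc5 and Ciita by cell type and library, with 95% counting (Poisson) intervals as bars and without points at 0 UMIs. Nlrc5 is higher in both COL libraries than in both NS libraries in each tested type, while Ciita in neurons overlaps between the groups (0.0523 and 0.0830 against 0.0401 and 0.0921).

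The share of nuclei with at least 1 UMI followed the levels. For class II it was 1.46% ± 0.722 (SD, n = 2) in NS neurons and 42.5% ± 25.4 in COL neurons, and 2.06% ± 0.292 and 32.0% ± 21.5 in microglia. For class I it was 13.8% ± 1.13 and 38.0% ± 11.9 in neurons and 30.0% ± 1.90 and 64.5% ± 3.96 in microglia. With each nucleus thinned to 1000 UMIs, the means for class II were 0.161% and 4.25% in neurons and 0.874% and 9.65% in microglia, and those for class I were 1.57% and 3.45% in neurons and 15.3% and 23.4% in microglia. Each COL against NS difference had a two-sided exact permutation p of 0.333, the smallest that 2 against 2 libraries allow. The unthinned class II share of COL microglia lay below that of COL neurons and the thinned share lay above it, so no order of microglia and neurons is read from these shares.

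The wider pathway was counted by lists. Of the 9 other class I chains tested over all nuclei, 3 were higher and none lower, where 5.02% of all genes were called higher (median log2 difference 0.11, against 0.02 over all genes). They were H2-Q6 (13 and 8 UMIs against 104 and 120), H2-Q7 (29 and 13 against 189 and 213) and H2-Q4, higher by 3.63 ± 0.40, 3.5 ± 0.40 and 2.80 ± 0.38. Of 12 genes of class I loading and control, 3 were higher over all nuclei, Nlrc5 and the immunoproteasome subunits Psmb8 (2.33 ± 0.41) and Psmb9 (2.16 ± 0.42), the latter overlapping Tap1 on the opposite strand. In microglia, where 11.9% of all genes were called higher, 2 of 11 tested were higher (median of the list −0.23, against −0.02 over all genes), Nlrc5 and Pdia3 (0.67 ± 0.20), a chaperone of the loading complex that was named after its values were seen, and Psme1, a subunit of the proteasome activator, was lower (−1.21 ± 0.36). Psme1 was lower in oligodendrocytes (−1.45 ± 0.34) and astrocytes (−1.36 ± 0.40) as well. In microglia, oligodendrocytes and astrocytes, 25.2%, 21.4% and 17.8% of all genes were called in either direction, and 11.9%, 9.44% and 8.02% higher. The 1 lower call of 11, 10 and 10 tested genes was thus near the general share.

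Of 12 other class II and loading genes tested over all nuclei (5.02% of all genes called higher), 4 were higher: Ctss, the protease that trims the invariant chain (2.47 ± 0.32), Ifi30, the lysosomal thiol reductase (2.62 ± 0.37), Lgmn, the asparaginyl protease (1.36 ± 0.15), and H2-DMb1, a chain of the peptide editor (2.23 ± 0.46). In microglia Lgmn was the only call of 9 (0.61 ± 0.15), a share near the 11.9% of all genes called higher there. Ctss had 1.18 and 1.34 UMIs per nucleus in NS microglia and 2.56 and 2.91 in COL microglia, where depth per nucleus was higher too, and relative to all RNA of microglia it did not pass (0.09, edgeR adjusted p = 0.735). Ifi30 reached 0.622 and 0.966 UMIs per nucleus in COL macrophages, against 0.171 and 0.271 in COL microglia. In all myeloid nuclei (16.1% of all genes called higher) 4 of 12 were higher, Ifi30 by 1.74 ± 0.28, and H2-DMb2 was lower (−1.61 ± 0.54).

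Of 6 costimulation genes, 2 were higher over all nuclei (5.02% of all genes called higher), and 1 of 4 tested in microglia (11.9%). Cd86, a ligand of CD28, was higher by 2.04 ± 0.24 and Cd274, which encodes the inhibitory ligand PD-L1, by 2.03 ± 0.28. In microglia Cd274 rose from 11 and 4 UMIs to 43 and 74 (1.72 ± 0.41, edgeR adjusted p = 0.00852), while Cd86 had a log2 difference of −0.07 (adjusted p = 0.779). Cd80 did not pass over all nuclei (0.74, adjusted p = 0.0955). Of 8 tested genes of interferon gamma signalling, 2 were higher over all nuclei (5.02% of all genes), 3 of 7 were higher in oligodendrocytes (9.44%), and in microglia 1 was higher and 1 lower of 7 (11.9% of all genes called higher). The interferon gamma gene itself (Ifng) had 0 and 0 UMIs in the NS libraries and 1 and 1 in the COL libraries. In oligodendrocytes Irf1, a transcription factor induced by interferon gamma, rose from 3 and 3 UMIs to 27 and 29 (3.18 ± 0.53).

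On the T cell side 3 of 6 genes were higher over all nuclei, where 5.02% of all genes were. The CD3 chain genes Cd3e and Cd3g were higher over all nuclei by 3.31 ± 0.44 and 3.72 ± 0.51, and the class I coreceptor chain Cd8a had 5 and 4 UMIs against 19 and 44 (2.97 ± 0.57). The class II coreceptor Cd4 had 22 and 29 UMIs against 29 and 26 and did not pass (0.32, edgeR adjusted p = 0.635). Over all nuclei the members' median log2 difference was 2.37, against 0.02 for all genes tested. It was 2.17 in oligodendrocytes, 1.38 in OPC, 1.09 in astrocytes, 0.92 in microglia, 2.42 in all myeloid nuclei and 2.02 in neurons, over the members that passed the filter of the test (10, 6, 9, 6, 10 and 10). Over all genes tested the median lay between −0.03 and 0.02 in each.

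Across 26 sums of a library and a type, the genes most like the class II sum were, by Pearson's r of log2(CPM + 1) and out of 22100 genes compared, Lyz2 (r = 0.977), Ifitm3 (0.972), Spp1 (0.962), Lgals3 (0.961) and Vim (0.954). Those most like the class I sum were Myh9 (0.979), Bst2 (0.973), Sp100 (0.973), Ms4a6b (0.971) and Ly9 (0.968). The 26 sums share libraries and depth, so these are descriptions with no test.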

How the data were processed

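Thalamic nuclei of 4 libraries (NS replicates 1 and 2, COL replicates 1 and 2, as the labels name them) were profiled by 10x Genomics snRNA-seq. The authors ran Cell Ranger 1.2.0 against mm10 and deposited UMI counts per gene and barcode as whole numbers, without normalization. Whether introns or strand were used in counting is not given in the sources used here. Barcodes with more than 50 genes and under 5% mitochondrial UMIs were kept, as the study's methods state, which removed 5 to 16 per library. No free RNA was subtracted and no doublet caller was run.

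Nuclei were assigned by marker lists. A type needed at least 3 of its markers and at least 40 (neurons, mature oligodendrocytes) or 24 (other types) marker UMIs per 10000, and nuclei that passed for more than 1 type were set aside as mixed (174 to 220 per library). Between 24 and 93 nuclei per library lay within 25% of the myeloid level and 483 to 878 within 25% of the neuron level. Myeloid nuclei with at least 3 microglia or macrophage marker UMIs, 75% of them of 1 kind, were divided accordingly. The gate levels were set after the data had been seen. The members and gene lists were chosen with earlier results of these data known.

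Counts were summed per library and type, for each type that had 20 nuclei or more per library, and tested with edgeR 4.0.16 (filterByExpr, TMM, quasi-likelihood F test, Benjamini-Hochberg over all genes tested in that type, threshold 0.05) with limma 3.58.1 under R 4.3.3. The difference of effects was tested in 1 fit with library and type as terms. The alternatives were a replicate block, DESeq2 1.42.0, genes with low counts kept, each library left out, a stricter gate, mixed nuclei kept, at least 500 genes per nucleus and no mitochondrial filter. Alternatives chosen after seeing the data were scaling by the number of nuclei, removal of nuclei with dendritic markers, and each type against neurons within the COL libraries. The tests were checked on simulated counts. Ratios carry exact 95% Poisson intervals, which cover counting error only, and a floor of 3 counts stands for 0. Shares were also computed with each nucleus thinned to 1000 UMIs, leaving out shallower nuclei, and compared by exact permutation tests.

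The members were named in every comparison. Other genes were named from 6 fixed lists (other class I chains, class I loading and control, other class II chains and loading, costimulation, interferon gamma signalling, T cell side) where the adjusted p was under 0.05 and the log2 change at least 1, at most 4 per list, or where a list needed them (Ifng, Nlrc5, Cd4, Cd8a, Cd80, Cd86). The list of other class II chains and loading went beyond that number, with Ctss, Ifi30, Lgmn, H2-DMb1 and H2-DMb2 named. Positions came from GENCODE M21 and promoters from RefSeq. Levels, shares and intervals came from pandas 2.3.3, scipy 1.17.1 and numpy 2.4.6 (Python 3.11.15), and plots from matplotlib 3.10.9.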

Additional observations from a re-analysis of the deposited data

Results flagged for a closer look

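The COL effect on B2m was smaller in microglia than in neurons by 0.933 on the log2 scale (−0.933) and smaller than in mature oligodendrocytes by 0.882 (−0.882), by a test of the difference itself. The COL effect on H2-Ab1 was smaller in microglia than in neurons by 2.94 (−2.94), by the same test, with 3 and 2 UMIs in NS microglia behind it. Each of these calls was lost when single libraries were left out, as described above. Scaled per nucleus, the B2m differences were −0.592 and −0.775 and neither passed (adjusted p = 0.0670 for both), and DESeq2 lost the second (adjusted p = 0.0659). Nuclei that passed for no cell type entered only the sums over all nuclei, and in them the class II chains stood at 0.592 and 1.06 UMIs per nucleus in COL replicates 1 and 2, against 0.0112 and 0.00828 in the NS replicates. No cause was tested.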

How the results depend on the processing

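Counts of members called higher for class I and class II, in that order, were 0 and 0 in neurons, 4 and 4 in oligodendrocytes, 1 and 2 in OPC, 1 and 3 in astrocytes and 3 and 1 in microglia. In neurons they became 3 and 4 with DESeq2 and with no filter on low counts, 4 and 4 per nucleus, and 2 and 4 with the replicate block. Same-numbered libraries deviated together only weakly (correlation 0.0557 to 0.171 over types). With 2 libraries per group this cannot decide whether the number pairs them. DESeq2 gave 0 class I calls in astrocytes, 1 and 2 in microglia, and 0 for B2m between microglia and oligodendrocytes. No filter gave 4 class II calls in OPC and in microglia, and the stricter gate gave 0 in OPC, where the class II chains had too few counts to be tested. Scaling per nucleus gave 3 class I calls in OPC and 5 in astrocytes and in microglia, and 0 for B2m between microglia and either neurons or oligodendrocytes. That scaling raised the median of all genes by 0.47 to 1.00 (log2) in the 5 types. The share of all genes it called in OPC, astrocytes and microglia is not given here. Leaving out single libraries gave 0 to 2 and 0 to 4 calls in neurons, 2 to 3 class I calls in oligodendrocytes, 1 to 2 and 1 to 4 in OPC, 0 to 2 and 1 to 4 in astrocytes, 1 to 3 and 1 to 4 in microglia, and, for the difference of effects, 0 to 1 class I calls against neurons, 0 to 1 against oligodendrocytes and 0 to 0 class II calls against neurons. Within the COL libraries TMM gave 4 class II calls higher and 0 lower in microglia (1.33, 1.29, 1.15 and 1.44 for H2-Aa, H2-Ab1, H2-Eb1 and Cd74) and 6 in the other resident types. These counts have no share of all genes on that scale beside them. The shares thinned to 1000 UMIs were 1.57% and 3.45% (class I, neurons, NS and COL), 15.3% and 23.4% (class I, microglia), 0.161% and 4.25% (class II, neurons) and 0.874% and 9.65% (class II, microglia).

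Between COL and NS, signs turned for neuron Tap2 with the stricter gate (−0.11), oligodendrocyte Ciita with it (0.30), with mixed nuclei (0.21) and per nucleus (0.57), OPC Tap2 with mixed nuclei (0.018) and per nucleus (0.63), and astrocyte Ciita per nucleus (0.48). Leaving out libraries gave −0.25 to 0.58 for neuron Tap2, −2.08 to 0.41 for oligodendrocyte Ciita, −0.42 to 0.18 for OPC Tap2, −1.37 to 0.050 for astrocyte Ciita, −0.48 to 0.61 for astrocyte H2-K1 and −0.35 to 0.75 for Ciita over all nuclei. Over all genes, neurons had 2 calls, against 2596 with DESeq2, 4638 with no filter, 1289 with the block, 0 with the stricter gate, 34 to 5757 without single libraries and 6298 per nucleus. Per nucleus, 93.4% of the called genes in neurons, 94.7% in oligodendrocytes, 93.9% in OPC, 96.4% in astrocytes and 96.6% in microglia were higher in COL, against 44.1% to 47.4% by TMM in the last 4. DESeq2 called 675 genes in OPC (1900 with edgeR), 1015 in astrocytes (2522), 1287 in microglia (2853), 2324 in all myeloid nuclei (4073) and 4565 over all nuclei (2416). Over all nuclei the block gave 5563 calls, no filter 6893, single libraries left out 1603 to 7012 and scaling per nucleus 6214 (88.6% higher, against 53.1%). The cause was not tested. Few UMIs in the NS libraries limit class II in microglia, OPC and astrocytes, and H2-Aa in mature oligodendrocytes. The replicate block could not be fitted for the difference of effects, where the library is already a term.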
